A study of Mus musculus with 16 samples.

Results

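The expression profile described here is that of the normal kidney cortex of the mouse, taken from the 4 wild-type arrays among the 16 of a study on kidney-specific deletion of Vhl and Pbrm1. The arrays were selected by their titles, and 22180 annotated genes were ranked by their mean level over those 4 arrays. The wild-type mice were of strain C57BL/6. The labels do not say whether they carried floxed alleles or a Cre transgene. The other groups, 4 arrays each, were VhlF/FKsp-Cre, Pbrm1F/FKsp-Cre and VhlF/FPbrm1F/FKsp-Cre mice on a mixed background of C57BL/6, BALB/c and 129, so strain and genotype cannot be told apart. Ksp-Cre is driven by the promoter of Cdh16, a cadherin of tubular epithelium, so these models delete the floxed genes in tubule cells and not in every cell of the kidney. All animals had a normal diet and were 3 months old, their sex was not given, and total RNA of the kidney cortex was read on Affymetrix arrays as biotin-labelled cRNA.

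The cortex holds the glomeruli, where podocytes and capillaries filter the blood, and most of the proximal tubule, which takes back sodium, glucose, phosphate, amino acids and filtered protein and burns fatty acids to do so. Downstream of it the thick ascending limb and the distal convoluted tubule reclaim salt without water, the connecting tubule adjusts calcium and sodium, and the principal and intercalated cells of the collecting duct set the final water, sodium and acid content of the urine. Each of these segments carries transporters of its own, which serve as its markers.

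Levels are the deposited log2 values, on which a step of 1 is a 2-fold change of signal. The median gene stood at 5.21, the lower quartile at 3.66, and the brightest 10% of genes, 2218 in number, lay above 8.40. Olfactory receptor genes, 1088 of them and not known as a major product of the kidney, had a median of 2.71 and a 95th percentile of 4.45, which is used below as a mark of low signal because the deposited table holds no detection call. By that mark 13529 genes (61.0%) stood above it in the wild-type mean. A level compares arrays for the same gene; between genes it orders the brightness of probe sets, which also depends on probe sequence and number, and is not a count of transcripts per length.

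Some arrays stood apart. In the descriptions replicates 1 and 2 share one number and replicates 3 and 4 another, each with the letters L and R, whose meaning is not given; they are called the first and the second pair here. The labels do not tell whether each array stands for an animal of its own. A p-value here is therefore measured against differences among arrays, part of which may be technical, and if a number marks 1 animal the wild-type group holds 2. Both arrays of the first pair were high in heat shock genes, replicate 4 was low in small nucleolar RNAs, and replicates 2 and 3 of the double mutant carry the same description. Leaving out these arrays changed some calls and counts, and for many of these, though not all, the value without them is given.

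The brightest genes were those of respiration and of proximal tubule transport and metabolism. Of the 30 brightest, 9 were among the 10 measured genes of the mitochondrial genome, which encode core subunits of the respiratory chain. ND4, a subunit of complex I, was brightest, at 13.78, 13.75, 13.83 and 13.74 in replicates 1 to 4. ND5 had a mean of 13.44 ± 0.07 (SD, n = 4), COX1 of complex IV 13.38 ± 0.08 and CYTB of complex III 13.21 ± 0.12. The nuclear partners Cox6a1 (12.95 ± 0.01) and Atp5b (12.70 ± 0.02), subunits of complex IV and of ATP synthase, followed closely. Replicate 3 was the highest of the 4 arrays for 9 of the 10 mitochondrial genes, against 21.3% of all genes.

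Proximal tubule lists gave 7 of the 30. Slc34a1, the sodium-phosphate cotransporter of the brush border, read 12.82, 12.79, 12.85 and 12.80. Acy3, an aminoacylase, read 12.80, 12.79, 12.65 and 12.63. The others were Cyp4b1 (12.70 ± 0.05), Miox, which opens the ring of inositol (12.70 ± 0.04), Kap, the androgen-regulated kidney protein (12.66 ± 0.06), Acsm2, an acyl-CoA synthetase (12.55 ± 0.04), and the cytochrome P450 Cyp2e1 (12.42 ± 0.06). Slc27a2, a fatty acid transporter and acyl-CoA synthetase, stood at 12.78 ± 0.04 and Cat, catalase, at 12.69 ± 0.03. Klk1, a kallikrein secreted by the connecting tubule, read 12.90, 12.84, 12.97 and 12.89, and it belongs to a family of near-identical copies whose signals may be shared. Atp1b1, the beta subunit of the sodium pump, read 12.41, 12.42, 12.40 and 12.42.

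The rest of the 30 were genes of wide use. They comprised the translation factor Eif4a1 (12.92 ± 0.18), the secreted Igfbp7 (12.78 ± 0.06), the ferritin chain Fth1 (12.75 ± 0.02), the tetraspanin Cd81 (12.67 ± 0.01) and the glycolytic Gapdh (12.55 ± 0.09), with 3 noncoding RNAs, Rn7sk (13.48 ± 0.04), Mir5099 (12.62 ± 0.04) and Malat1 (12.38 ± 0.03). SDs over the 30 ran from 0.0097 to 0.176 with a median of 0.0509, and 24 of them were under 0.1. Of the 100 brightest genes, 21 came from the 59 measured proximal tubule markers and 12 from the 361 measured solute carriers. Protein coding genes were 94 of the 100, and 18984 of all 22180 genes. None of the 12 podocyte, 14 principal cell or 21 intercalated cell markers was among those 100. That is near what a share of 100 in 22180 would give for lists this short. Each single wild-type array shared 29 of the 30 with the mean, and the mean ranking of the Vhl, Pbrm1 and double mutant groups shared 27, 28 and 27 of them.

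**Figure D1:**
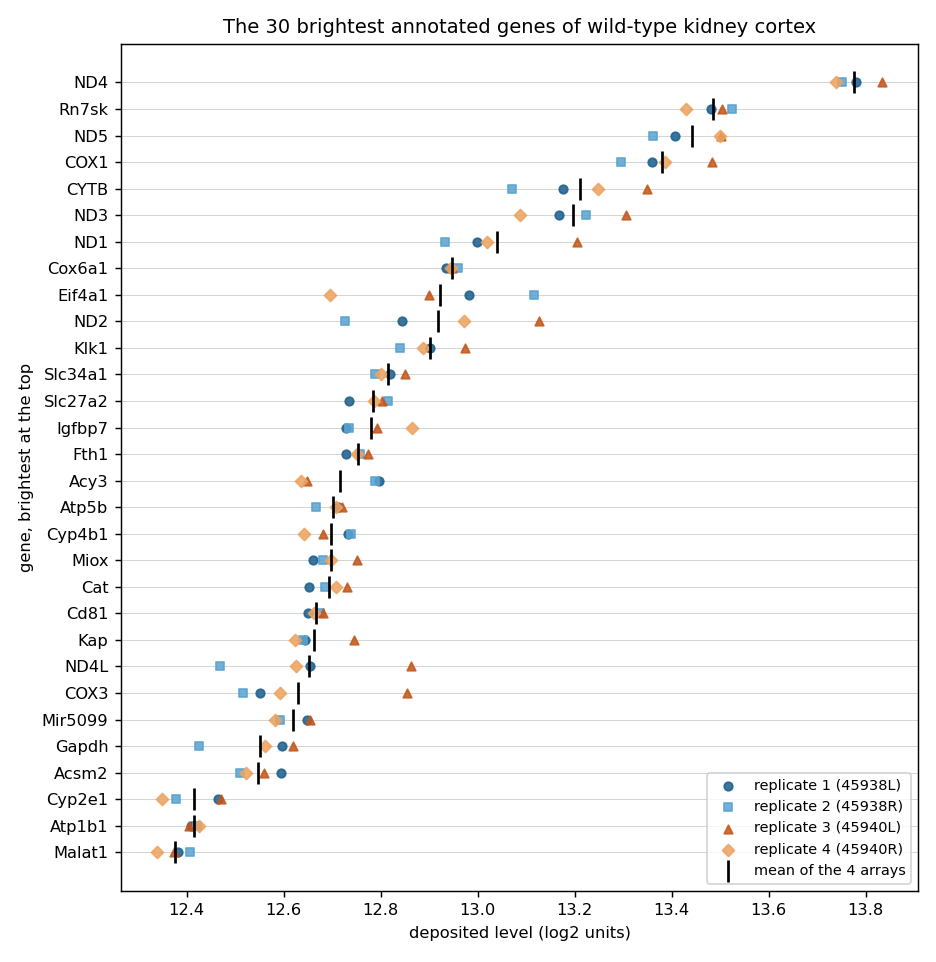
Level in log2 units (horizontal) of the 30 brightest genes (vertical, brightest at the top), with 1 symbol for each wild-type array and a black bar for the mean of the 4. The genes run from ND4 at 13.78 to Malat1 at 12.38, and the 4 arrays lie close together for most, with ND2, ND4L, COX3 and Eif4a1 among the wider ones.

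Glomerular genes were present at middling levels. All 12 measured podocyte markers stood above the olfactory 95th percentile, with a median of 6.66 against 5.21 for all genes, and 2 were in the brightest 10%. Clic5, a chloride channel-like protein of the foot process, was highest at 9.52 ± 0.08 (SD, n = 4), and Podxl, which coats the podocyte surface, read 8.43, 8.45, 8.56 and 8.49. Nphs1, the nephrin of the slit diaphragm, read 6.61, 6.57, 6.65 and 6.70, and the transcription factor Wt1 read 6.90, 6.74, 6.47 and 6.60.

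The 4 proximal tubule lists had the highest medians of all the nephron lists. Markers of the first part, S1, had a median of 11.07 and 15 of 16 were in the brightest 10%. Slc34a1 led, followed by Lrp2, the megalin receptor that takes up filtered protein, at 12.29, 12.28, 12.35 and 12.34, and by the bicarbonate cotransporter Slc4a4 at a mean of 12.15. Slc7a8, an amino acid exchanger, stood at 11.88 and Slc5a12, a lactate transporter, at 11.67. Slc5a2, the main glucose cotransporter of this part (SGLT2), was rank 135 at 11.23, 11.13, 11.22 and 11.32. The lowest of the S1 list were Amn, the partner of cubilin, at 8.42 and the phosphate transporter Slc34a3 at 8.08.

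The S2 list had a median of 10.60, with 9 of 10 genes in the brightest 10%, and the S3 list a median of 10.35, with 11 of 12. Slc22a6, which takes up organic anions, read 11.79, 11.72, 11.63 and 11.56. Among S3 genes Napsa, an aspartic protease, stood at 12.14, Slc3a1, the heavy chain of the cystine transporter, at 12.03, and Slc7a13, its S3 light chain, at 11.89, 11.88, 11.85 and 11.82. The lowest members were Slc22a30 of the S2 list at 5.89 ± 0.31 and Slc5a1, the glucose cotransporter SGLT1 of S3, at 7.14, 7.50, 7.59 and 7.68. Of the 21 general proximal markers, 19 were in the brightest 10%, among them Gpx3, the plasma glutathione peroxidase, at 12.24 and Keg1 at 12.23. The lowest of that list were also among its least even. Cyp27b1, which makes active vitamin D, read 6.82, 6.62, 7.86 and 7.74, and Ass1, which joins citrulline and aspartate, read 6.57, 6.07, 6.95 and 6.90.

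Along the loop of Henle, the thin limb list had a median of 6.36 and only 2 of 6 genes in the brightest 10%, Aqp1 at 10.97, a water channel the proximal tubule also carries, and Cldn10 at 9.72. Thick ascending limb markers had a median of 8.30, with 8 of 16 in the brightest 10%. Umod, the uromodulin shed into urine, read 12.05, 12.04, 11.91 and 12.03. Slc12a1, the sodium-potassium-chloride cotransporter blocked by furosemide, read 11.58, 11.65, 11.41 and 11.55, and Egf stood at 11.49 ± 0.02. The lowest of the list were Irx1 at 6.72 and Cldn14 at 3.80. All 4 measured macula densa genes lay outside the brightest 10%. Avpr1a was highest at 5.94, and Nos1 (4.45), Pappa2 (3.42) and Ptgs2 (3.35), the prostaglandin synthase COX-2, did not exceed the olfactory 95th percentile.

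Distal segments formed a step below the proximal tubule. The distal convoluted tubule list had a median of 8.99 with 9 of 16 genes in the brightest 10%, led by Slc12a3, the thiazide-sensitive sodium-chloride cotransporter, at 12.11, 12.06, 12.15 and 12.20. Kcnj16, a potassium channel subunit, stood at 10.92 and the kinase Wnk1 at 10.80. The calcium-binding Pvalb was the lowest of that list and uneven, at 5.92, 6.22, 6.72 and 6.68. The connecting tubule list had a median of 9.02 with 6 of 10 in the brightest 10%. It held Klk1, the FGF23 co-receptor Kl (11.93), and the calcium-binding proteins S100g (11.17) and Calb1, which read 10.20, 10.22, 10.97 and 10.70. Trpv6 (5.02) and Tac1 (2.59) were its lowest.

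In the collecting duct, principal cell markers had a median of 7.48 with 5 of 14 in the brightest 10%, and intercalated cell markers a median of 8.14 with 8 of 21. Scnn1a, the alpha subunit of the epithelial sodium channel, read 9.42, 9.43, 9.64 and 9.66. Hsd11b2, which inactivates glucocorticoid, stood at 9.37 and the basolateral water channel Aqp3 at 9.35. Aqp2, the vasopressin-regulated water channel, read 8.22, 8.26, 8.06 and 8.33. Of the intercalated cell genes, the carbonic anhydrases Car2 and Car12 stood at 10.69 and 10.04, the proton pump subunits Atp6v0a4 and Atp6v1b1 at 9.72 and 9.30, and the ammonia channel Rhcg at 9.49. Car2 is also made in other tubule cells. All 21 intercalated genes were above the olfactory 95th percentile, the lowest being Slc26a7 (5.43) and Clnk (4.83).

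Genes of medulla, urothelium and neighbouring organs were lower. Medulla and papilla markers had a median of 5.35, with 2 of 11 in the brightest 10%, and urothelial markers 4.99 with none of 8. The adrenal list had a median of 3.66, with 2 of 12 genes above the olfactory 95th percentile, and the skeletal muscle list 4.86 with 5 of 8. Liver markers had the median of all genes, 5.21, and their 2 bright members were Apob (10.59 ± 0.10) and Ttr, transthyretin (10.03 ± 0.42). Alb, the defining liver gene, read 6.88, 7.69, 6.54 and 6.47, with replicate 2 highest.

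Vessel genes exceeded those of other stromal and immune cells. The endothelial list had a median of 7.98 with 7 of 17 in the brightest 10%, led by Eng at 9.47, Cdh5 at 8.91 and Plvap at 8.89. Smooth muscle and renin cell markers had a median of 6.48, fibroblast markers 5.99 and macrophage markers 5.77. The pericyte gene Rgs5 (8.47), Pdgfra (8.09), Dcn (7.97), the macrophage receptor Csf1r (7.82) and C1qb (7.28) were the brighter of these. Lymphocyte and neutrophil lists had medians of 4.20 and 3.94, with 4 of 14 and 2 of 9 genes above the olfactory 95th percentile, and the immunoglobulin heavy chain Ighm was the brightest of them at 7.87, 7.70, 8.23 and 8.06. These bulk samples cannot tell fewer cells of a type from less RNA per cell.

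**Figure D2:**
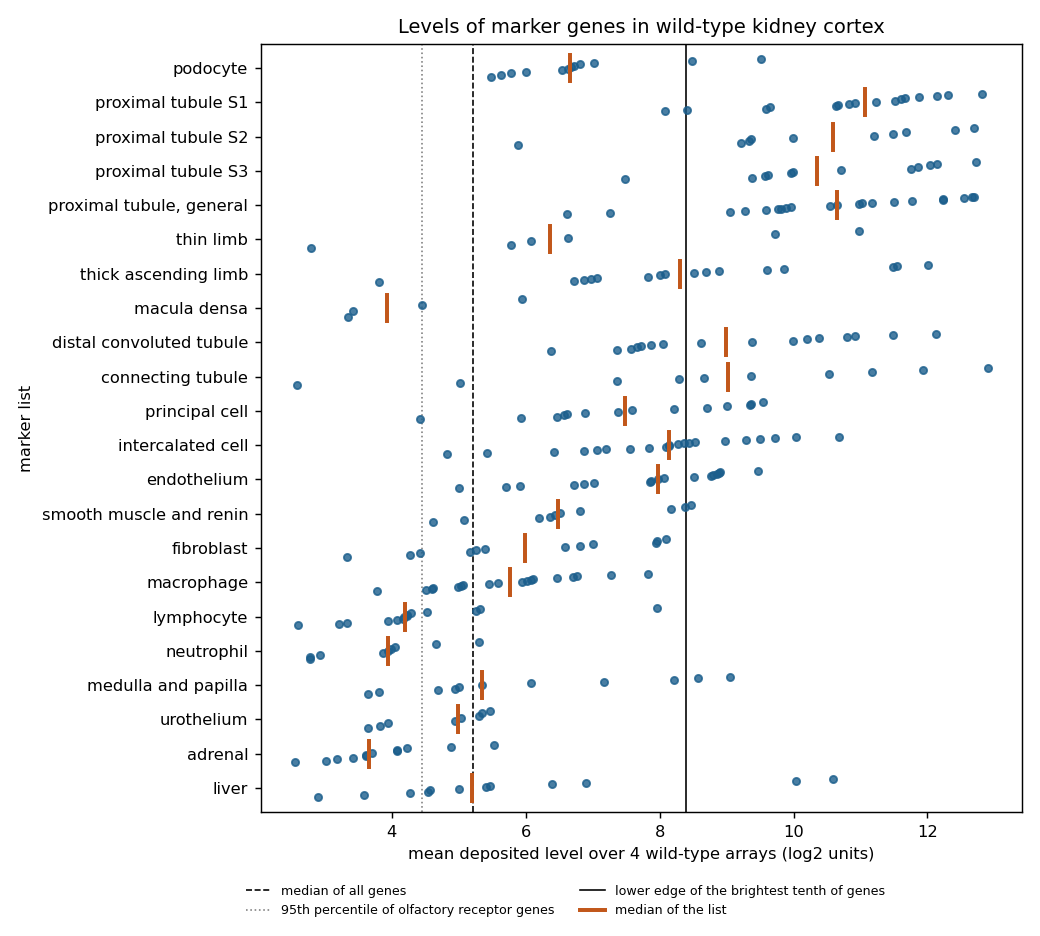
Mean level over the 4 wild-type arrays (horizontal, log2 units) of each measured member of 22 marker lists (vertical), with an orange bar for each list's median and vertical lines for the median of all genes (5.21), the 95th percentile of olfactory receptor genes (4.45) and the lower edge of the brightest 10% (8.40). Proximal tubule lists have medians from 10.35 to 11.07, the distal convoluted and connecting tubule lists have 8.99 and 9.02, and the adrenal and neutrophil lists lie at the left.

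Genes of fatty acid oxidation and of glucose synthesis were mostly bright. Of the 21 fatty acid oxidation genes 17 were in the brightest 10%, with a median of 10.02, among them Acadm, the medium-chain acyl-CoA dehydrogenase (12.21), Hadh (11.74) and Cpt1a, which admits fatty acids to mitochondria (10.72), while Hadhb was lowest at 4.86. Of the 9 gluconeogenic genes 8 were in the brightest 10%. Pck1, which turns oxaloacetate to phosphoenolpyruvate, read 12.01, 11.96, 11.53 and 11.56, and Fbp1 stood at 11.50. G6pc, which releases free glucose, read 10.33, 10.38, 10.92 and 10.97. For both genes the arrays of a pair lay together and the pairs did not overlap. The 13 glycolytic genes had a median of 7.80, with Gapdh at 12.55, Ldhb at 10.77, Ldha at 6.40, the lactate exporter Slc16a3 at 4.86 and the hexokinase Hk2 at 4.80. Nuclear respiratory chain genes had a median of 9.80 with 23 of 29 in the brightest 10%, and vacuolar proton pump subunits 9.27 with 11 of 14.

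The genes that define the study's groups were measured too. In the wild-type arrays Vhl read 6.55, 6.24, 6.23 and 6.34, Pbrm1 read 8.26, 8.21, 8.17 and 8.14, and Cdh16 read 10.85, 10.77, 10.73 and 10.82. The group means of Vhl were 6.28 in the Vhl group and 6.22 in the double group, and of Pbrm1 8.19 and 8.13 in the Pbrm1 and double groups, so these probe sets did not separate the genotypes. Whether they lie in the deleted exons is not given in the sources used here. Of the genes marking sex, Xist stayed between 3.06 and 3.33, below the lower quartile of all genes, while the Y-linked Uty stood at 7.38 ± 0.16 and Kdm5d at 6.29 ± 0.20. Of the 11 genes known to be higher in male mouse kidney 8 were in the brightest 10%, with a median of 10.74, and of the 11 known to be higher in female kidney 3, with a median of 7.76.

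Array-to-array spread was small, and among genes above the median level it fell with brightness. The median gene had an SD of 0.137 over the 4 wild-type arrays, against 0.135, 0.126 and 0.128 in the Vhl, Pbrm1 and double mutant groups. By level, the median SD was 0.153 in the dimmest 10% of genes, 0.172 near the middle and 0.0743 in the brightest 10%. An SD above 0.5 was found for 169 genes, 76 of them among the 11090 genes above the median level. Between pairs of wild-type arrays Pearson's r across genes ran from 0.991 to 0.994, where genes are not independent replicates. The median absolute difference was 0.129 for replicates 1 and 2 and 0.130 for replicates 3 and 4, and 0.137 to 0.163 between arrays of different pairs. Among genes above the median level, 2 differed over 2-fold between replicates 1 and 2, and 74 between replicates 2 and 4.

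Small nucleolar RNAs, which guide the chemical modification of ribosomal RNA and are mostly cut from introns of host genes, carried much of the widest spread. The 81 measured had a median SD of 0.535, against 0.131 for protein coding genes, and without replicate 4 these medians were 0.188 and 0.120. Snord61 read 9.63, 9.65, 9.71 and 6.45 in replicates 1 to 4, the widest SD of any gene above the median level (1.61). Snord47 read 8.27, 8.49, 8.76 and 5.32, and Snord111 read 7.02, 6.87, 6.92 and 3.78. Snora33, the brightest of the class, read 12.69, 12.68, 12.71 and 11.31. In each case replicate 4 alone was low. The small cytoplasmic RNA Rny1, of another class, read 9.77, 9.39, 10.11 and 7.62.

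Replicate 4 was the lowest wild-type array for 60 of the 81 (74.1%), against 24.9% of all genes. Of the 59 above the olfactory 95th percentile, it was lowest of the 4 arrays for 51 and lowest of all 16 for 46. For 37 of the 59 it lay at least 1 log2 unit below the mean of the other 3, and for 4 it lay at or above that mean. The differences ran from -3.22 to 0.59 with a median of -1.29. The median deviation of these 59 was 0.06, 0.19, 0.07 and -1.17 in wild-type replicates 1 to 4, and between -0.40 and 0.26 in the mutant arrays. The 15 measured Snhg and Gas5 genes, noncoding hosts of small nucleolar RNAs that were not matched to these 59, had a median deviation of -0.04 in replicate 4.

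**Figure D3:**
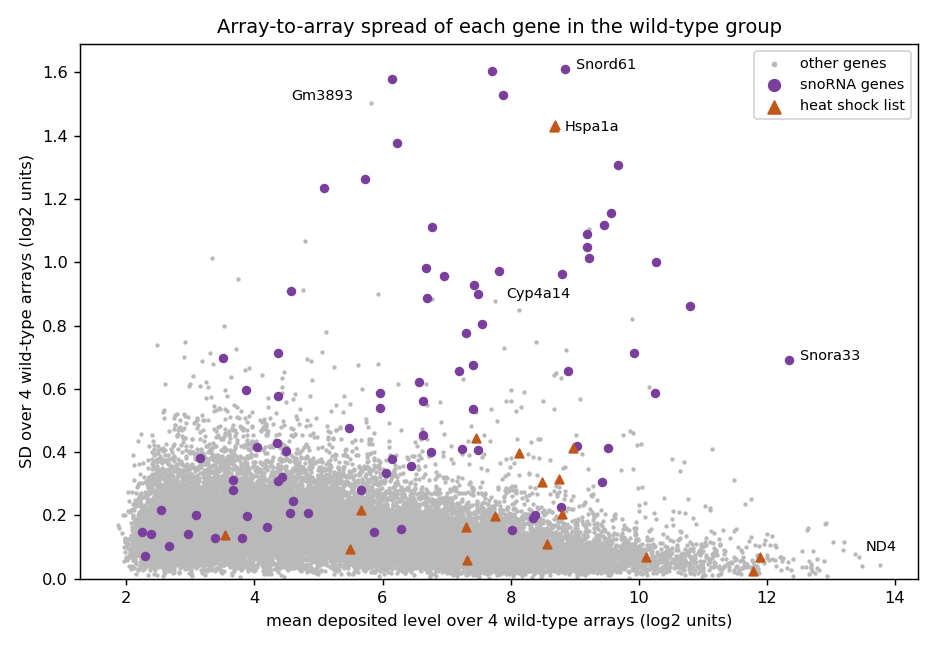
SD over the 4 wild-type arrays (vertical, log2 units) against mean level (horizontal, log2 units), with 1 point for each of 22180 genes, purple circles for the 81 small nucleolar RNA genes and orange triangles for the 18 measured genes of the heat shock list. Snord61 tops the purple group at an SD of 1.61, Hspa1a and Hspa1b are the highest triangles, and the brightest genes, ND4 among them, lie near the bottom.

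Within the wild-type group, the first and second pair differed in a small set of genes. Tested with limma over all 16 arrays, 86 of 22180 genes (0.388%) passed an adjusted p of 0.05, 60 of them (0.271%) lower in the second pair and 26 (0.117%) higher, and 15 differed by over 2-fold. The median SE of a difference was 0.149 and its median over all genes was -0.01. The smallest adjusted p among the lower genes was that of Gm3893, a predicted gene on the array with 3 probe sets, which read 7.18 and 7.06 in the first pair and 4.52 and 4.52 in the second. The count of calls was 35, 24, 109 and 38 without wild-type replicates 1, 2, 3 and 4 in turn, and 214 without double mutant replicate 3. Of the calls 30.2% were higher in the second pair, a share that became 17.6% with each array centred on its median and 42.7% after quantile normalization.

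Heat shock chaperones refold proteins and are switched on together by stress through the factor HSF1. Of the 18 measured, 5 were lower in the second pair and none higher, with a median difference of -0.28, and for 12 of the 18 (66.7%) both arrays of the first pair lay above both of the second, against 22.6% of all genes. Hspa1a read 9.80, 10.02, 7.51 and 7.38, a difference of -2.46 ± 0.22 (SE; limma adjusted p = 3.08e-05). Hspa1b read 9.85, 10.01, 7.45 and 7.45, a difference of -2.48 ± 0.24 (limma adjusted p = 5.22e-05). For both genes the pairs were over 2 log2 units apart and did not overlap, but as near-identical copies the pair counts as 1 uncertain signal. The other members that fell were the co-chaperones Hsph1 (9.29, 9.38, 8.70 and 8.55), Dnajb1 (7.83, 7.85, 7.16 and 6.99) and Bag3 (8.49, 8.43, 7.64 and 7.99). Hspa8, the constitutive member, read 11.99, 11.86, 11.86 and 11.86 and did not pass the test. Leaving out 1 wild-type array left 2 or 3 of the 5 called, and leaving out double mutant replicate 3 gave 7.

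The start of transcription of the stress-induced pair is shown because HSF1 binds repeats of the unit GAA and its reverse TTC. The 250 bases before the start, from RefSeq on GRCm38.p6, lie at chr17:34972157-34972406 for Hspa1a, chr17:34959239-34959488 for Hspa1b and chr5:149636337-149636586 for Hsph1, all on the minus strand and printed 5′ to 3′, with a match to GAANNTTC or TTCNNGAA in capitals.
Hspa1a: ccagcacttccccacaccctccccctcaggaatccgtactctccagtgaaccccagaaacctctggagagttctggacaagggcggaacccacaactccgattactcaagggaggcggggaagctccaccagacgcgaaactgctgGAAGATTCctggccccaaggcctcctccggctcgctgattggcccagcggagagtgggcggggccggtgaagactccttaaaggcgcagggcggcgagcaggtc
Hspa1b: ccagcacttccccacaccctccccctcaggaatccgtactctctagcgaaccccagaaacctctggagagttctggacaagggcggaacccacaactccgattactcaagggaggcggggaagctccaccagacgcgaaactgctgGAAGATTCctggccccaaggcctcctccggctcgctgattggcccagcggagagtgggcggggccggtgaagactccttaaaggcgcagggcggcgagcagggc
Hsph1: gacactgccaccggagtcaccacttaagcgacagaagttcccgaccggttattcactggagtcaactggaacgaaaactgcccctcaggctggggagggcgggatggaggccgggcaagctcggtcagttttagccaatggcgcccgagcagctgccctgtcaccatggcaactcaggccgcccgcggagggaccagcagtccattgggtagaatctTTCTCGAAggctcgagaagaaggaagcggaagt
The match began 104 bases before the start in both Hspa1a and Hspa1b, whose windows were identical at 247 of 250 bases (98.8%). In Hsph1, which has 2 listed start sites, it began 33 bases before the one shown and 54 before the other. Both motifs read the same on the other strand, and they can overlap each other. In windows of 250 bases before to 50 after the start, 1 or both were found in 9 of the 14 heat shock list genes with an entry (64.3%) and in 2670 of the 16990 genes with one (15.7%). Of the called members, 4 of 5 held a match, Dnajb1 being the exception, and Bag3's lay after the start. That count takes the near-identical windows of Hspa1a and Hspa1b separately. Over all calls the share was 8 of 45 lower genes (17.8%) and 3 of 18 higher ones (16.7%), near that of all genes. A run of 3 alternating units, GAA and TTC with 2 free bases between neighbours, was found in 4 of the 14 and in 107 of all genes (0.630%). Of the 5 called members 1 held this run, Hsph1, and it was not found for Hspa1a or Hspa1b. A match describes letters in the window, not binding.

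Further genes were lower in the second pair. Gadd45g, a growth arrest gene, read 8.87, 9.20, 7.71 and 7.82, a difference of -1.27 ± 0.17 (limma adjusted p = 0.0015), and Slc16a14, an orphan transporter of the monocarboxylate family, read 9.36, 9.17, 8.21 and 8.09. In the immediate early list 3 of 35 were lower, Gadd45g, the AP-1 subunit Jun (-0.76) and the phosphatase Dusp1 (-0.66). Leaving out single arrays gave 1 to 3 called genes in that list. The remaining genes among the 8 largest called falls were E230001N04Rik (-1.56), the aldehyde dehydrogenase Aldh1a7 (-1.15) and Rnu3a (-1.11), a small RNA of ribosome assembly. Without replicate 2, limma's adjusted p was 0.0591 for Gadd45g, 0.0809 for E230001N04Rik, 0.0545 for Aldh1a7 and 0.152 for Rnu3a, which also missed the threshold without replicate 4 (0.131). The water channel Aqp4 was the only principal cell gene of 14 to be called, at 7.73, 7.84, 6.85 and 7.09.

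Among the 8 largest called rises in the second pair were enzymes and regulators of lipid, drug and vitamin D metabolism, named by size and not as a tested group. Cyp4a14, a fatty acid hydroxylase, read 7.02, 6.98, 8.63 and 8.39, a difference of 1.51 ± 0.10 (limma adjusted p = 3.73e-07). Cyp24a1, which degrades active vitamin D, read 8.18, 8.31, 9.53 and 9.47. Pdk4, the pyruvate dehydrogenase kinase, and Angptl4, an inhibitor of lipoprotein lipase, were higher by 0.96 and 0.91. The bile acid transporter subunit Slc51a (1.11), the carboxylesterase Ces1g (1.02), the xenobiotic receptor Nr1i2 (1.01) and the antithrombin Serpinc1 (0.93) completed the 8 largest rises among the called genes. These 4 and Pdk4 missed the threshold when single arrays were left out, with limma's adjusted p up to 0.0996 for Slc51a, 0.13 for Ces1g and 0.0972 for Nr1i2 without replicate 2, 0.201 for Nr1i2 and 0.199 for Serpinc1 without replicate 4, and 0.0829 for Pdk4 without replicate 1. Serpinc1 read 3.87 and 4.18 in the first pair, below the mark of low signal, so its rise has no exact size. None of the 21 fatty acid oxidation genes was called by limma, and 3 had an unadjusted p under 0.05, as did 2388 of all 22180 genes. Cyp27b1, the vitamin D 1-alpha-hydroxylase, had a difference of 1.08 with limma adjusted p = 0.0536 and was not called.

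Some segment genes differed between the pairs, where 0.388% of all genes were called. In the connecting tubule list 2 of 10 were higher, Calb1 (0.63 ± 0.12) and the calcium channel Trpv5, which read 7.11, 7.11, 7.66 and 7.60. Of the 21 intercalated genes 2 were higher, the anion channel Aqp6 (7.97, 8.15, 8.85 and 8.78) and the anion exchanger Slc4a1 (7.15, 7.37, 7.67 and 8.04). Slc4a1 was also the only measured gene of the 7 on the red blood cell list, and which cells gave its signal was not tested. In the proximal lists the sulfate transporter Slc13a1 rose by 0.54, G6pc by 0.59, Gldc by 0.51 and Cubn by 0.26, and the proton exchanger Slc9a3 fell by 0.32. None of the 12 podocyte, 16 thick ascending limb, 16 distal convoluted tubule, 17 endothelial, 18 macrophage or 19 circadian genes was called by limma. Of them, 1, 5, 4, 6, 4 and 1 had an unadjusted p under 0.05, as did 2388 of all 22180 genes. The 10 mitochondrial genes were not called either, though 8 had an unadjusted p under 0.05 and for 7 both arrays of the first pair lay below both of the second. Many of these segment calls were lost when single arrays were left out. Without wild-type replicates 1, 2, 3 and 4 in turn, 0, 0, 0 and 1 connecting tubule genes, 0, 1, 2 and 1 intercalated genes and 2, 1, 1 and 1 general proximal genes were called, while S1 had none each time and S2 had 1 each time. Aqp4 was lost without replicate 2. Without double mutant replicate 3, 6 general proximal genes were called. One Y-linked gene, Eif2s3y, was lower, at 8.01, 7.91, 7.39 and 7.05.

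**Figure D4:**
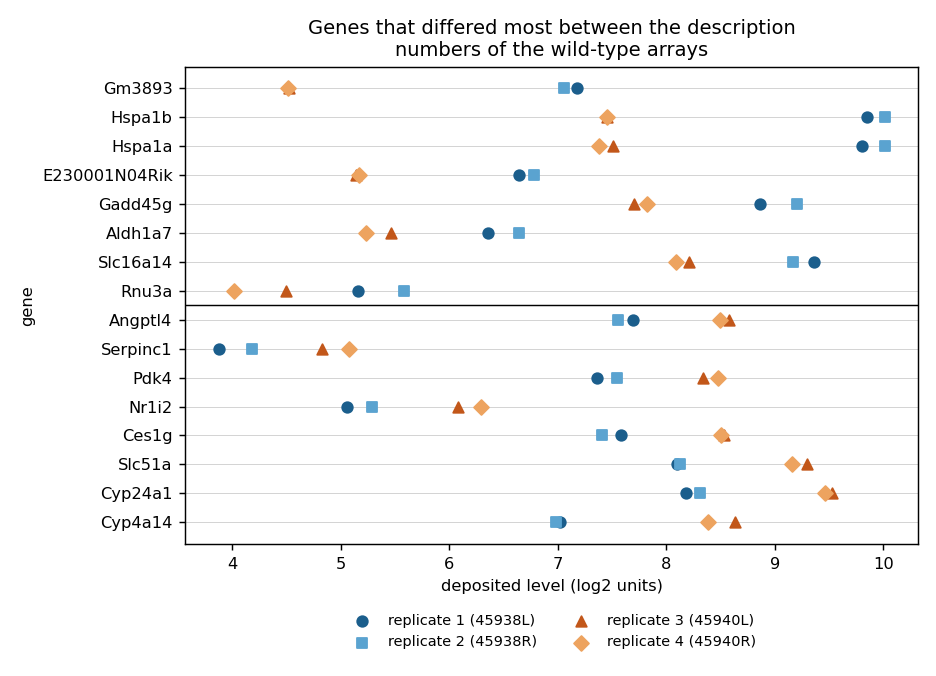
Level in log2 units (horizontal) in each of the 4 wild-type arrays of the 8 called genes with the largest falls (above the line) and the 8 called genes with the largest rises (below it) from the first pair to the second. Blue symbols are the arrays of the first pair and orange ones those of the second, with each array's description in the legend, and they separate for each gene, most widely for Gm3893, Hspa1b and Hspa1a.

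Set against the mean of the 3 mutant groups, wild-type cortex had more higher than lower calls in the distal tubule and heat shock lists and more lower ones in the macrophage, glycolytic and injury lists. The mutant groups did not all share this. The list medians of the Pbrm1 mutants overlapped wild type or lay on the other side in several lists. Those of the double mutants overlapped wild type in 2 distal lists. The distal convoluted tubule list stood at 8.91 to 9.09 in the double mutants and 8.95 to 9.05 in wild type. The thick ascending limb list stood at 8.24 to 8.56 and 8.21 to 8.41, while the Vhl mutants lay below wild type in both (8.62 to 8.92 and 7.92 to 8.13). With limma and the description number as a random block, 1430 of 22180 genes (6.45%) passed an adjusted p of 0.05, 784 (3.53%) higher in wild type and 646 (2.91%) lower, while 229 (1.03%) also differed by at least 1.5-fold. The wild-type arrays enter each of the 3 differences behind that mean, so the groups are not independent looks at wild type. Genotype, strain and description number change together here and cannot be told apart. The count of calls was 949 without wild-type replicate 1, 652 without the first pair and 558 with arrays averaged per description number.

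Of the tubule lists, that of intercalated cells had the largest share called, with 13 of 21 higher in wild type and 1 lower. Rhcg read 9.46, 9.44, 9.39 and 9.67 in wild type, 8.56 to 8.91 in the Vhl mutants, 9.04 to 9.15 in the Pbrm1 mutants and 7.70 to 7.98 in the double mutants. No mutant array reached the lowest wild-type one, and the difference was 0.93 ± 0.07 (SE; limma adjusted p = 4.48e-08). Rhbg, the second ammonia channel, was higher by 0.91 ± 0.13 (limma adjusted p = 0.000161), and Car2 was lower, by -0.22 (limma adjusted p = 0.0262, 0.09 without wild-type replicate 4 and 0.12 without the first pair). In the distal convoluted tubule list 8 of 16 were higher and none lower, with Klhl3, an adaptor of the ligase that degrades WNK kinases, at 0.43 and Slc12a3 at 0.28. Of the connecting tubule genes 5 of 10 were higher, led by the calcium exchanger Slc8a1 (0.51; limma adjusted p = 0.0158, and 0.0703 without replicate 3), and of the thick ascending limb genes 5 of 16, led by the chloride channel subunit Bsnd (0.51), with Wfdc2 lower (-0.48). As medians, the intercalated list stood at 8.06 to 8.26 in wild type and 7.89 to 8.17 in the Pbrm1 mutants, and the connecting tubule list at up to 9.04 in wild type and, higher, at 9.14 to 9.17 in the Pbrm1 mutants. Averaging the arrays that share a description number left 10 intercalated, 2 distal convoluted tubule, 3 connecting tubule and 3 thick ascending limb genes called, and without the first pair the counts were 12, 6, 5 and 2.

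Principal cell genes went both ways. Of 14, 4 were higher in wild type and 2 lower. Hsd11b2 (0.40) and Aqp3 (0.39) led the first, and Aqp4 (-0.99) and the hormone Stc1 (-0.96) were the second. The proximal lists moved less. In S1 2 of 16 were higher and 1 lower, in S2 1 of 10 and in S3 2 of 12 higher, and of the 21 general markers 6 were higher, including Gldc (0.42), and 1 lower, G6pc (-0.49). Leaving out single arrays gave 0 to 1 called genes in S2 and 0 to 2 in S3. G6pc had a limma adjusted p of 0.0578 without replicate 1 and 0.0539 without replicate 2, and without the first pair it differed by -0.19 (limma adjusted p = 0.429). Aqp3 had a limma adjusted p of 0.0835 without the first pair. None of the 12 podocyte genes was called by limma, and 2 had an unadjusted p under 0.05, as did 4179 of all 22180 genes. For the general list the count of 7 became 1 when arrays of a number were averaged.

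Many macrophage, glycolytic and injury genes were lower in wild type than in the mean of the mutants. The list medians of the Vhl and double mutants lay above every wild-type array. Those of the Pbrm1 mutants overlapped wild type or, for the glycolytic list, lay below it. The median of the glycolytic list was 7.66 to 7.94 in the wild-type arrays, 8.88 to 9.02 in the Vhl, 7.54 to 7.61 in the Pbrm1 and 9.18 to 9.51 in the double mutants. For the macrophage list it was 5.55 to 5.87 in wild type, 6.32 to 6.50, 5.58 to 5.80 and 6.15 to 6.48 in those groups, and for the injury list 6.25 to 6.53, against 6.85 to 7.19, 6.23 to 6.39 and 7.23 to 7.35. Of the macrophage list 11 of 18 were lower and none higher, with the receptor Cd14 at -0.90 and lysozyme Lyz2 at -0.84. Of the glycolytic list 9 of 13 were lower, with the lactate exporter Slc16a3 at -1.20. Slc16a3 read 4.50, 5.02, 4.94 and 4.96 in wild type, 6.35 to 6.58 in the Vhl mutants, 4.69 to 5.13 in the Pbrm1 mutants and 6.72 to 6.86 in the double mutants, so the Vhl and double mutants lay above every wild-type array and the Pbrm1 mutants overlapped them. Of the injury list 9 of 19 were lower and 1, the lipid droplet coat Plin2 (0.56), was higher. Havcr1, the injury molecule KIM-1, read 3.71, 4.39, 4.80 and 4.45 in wild type, near the mark of low signal. It ran from 5.51 to 6.91, 4.67 to 7.37 and 8.64 to 9.67 in the Vhl, Pbrm1 and double mutants, and the limma adjusted p was 0.000111. The measured difference of -2.76 has no exact size, since the wild-type mean of 4.34 lay below the mark of low signal. Lcn2, a secreted protein that binds bacterial iron carriers, differed by -1.49. Averaging per number left 10 macrophage, 7 glycolytic and 7 injury genes.

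Heat shock genes were higher in wild type in 12 of 18 and lower in none, and this rested on the first pair. Hspa1a was higher by 1.94 ± 0.39 (limma adjusted p = 0.00383) over all 4 wild-type arrays. Without the first pair, 1 of the 18 was called and Hspa1a differed by 0.70 (limma adjusted p = 0.289). Averaging per number left 6 called. Vessel and fibroblast lists had 3 of 17 and 4 of 12 lower in wild type, the endothelial mucin Emcn (-0.38) and the proteoglycan Dcn (-0.66) among them, and 1 of each without the first pair. Dcn had a limma adjusted p of 0.0595 without replicate 1 and 0.0838 without the first pair.

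**Figure D5:**
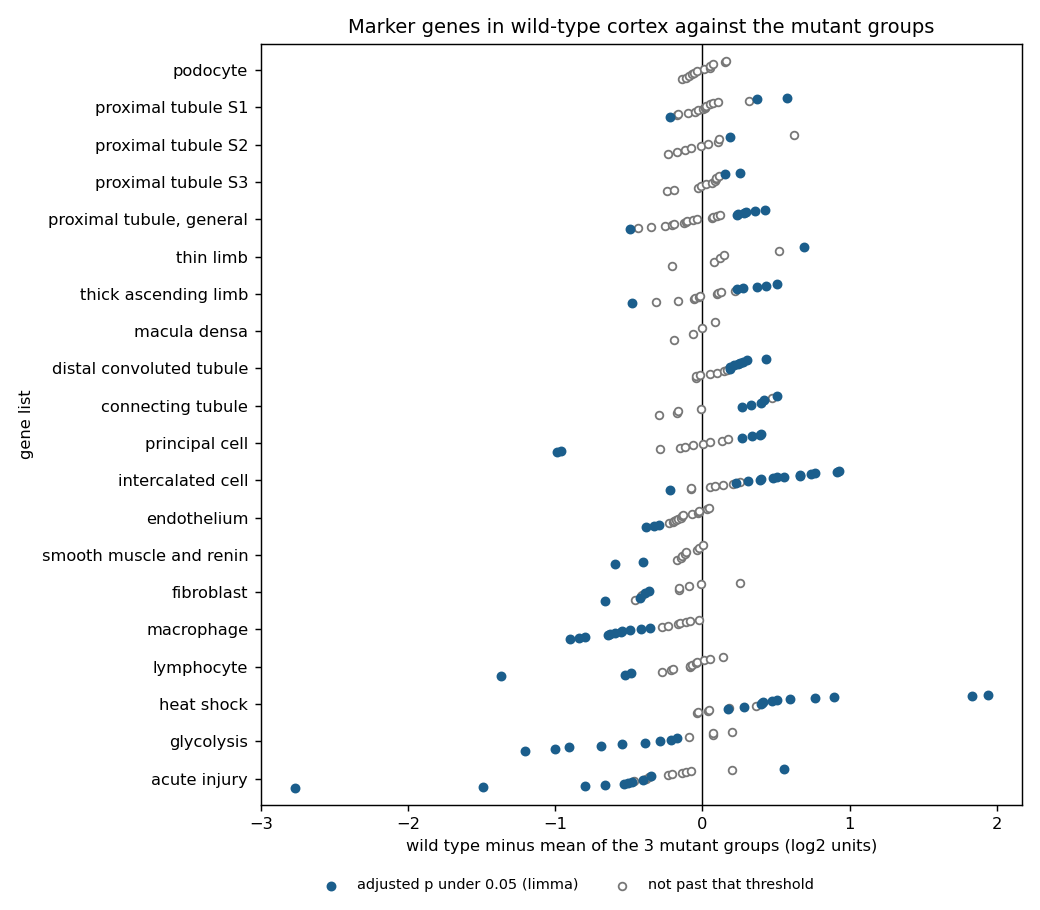
Difference of wild type from the mean of the 3 mutant groups (horizontal, log2 units) for each measured member of 20 gene lists (vertical), with filled points for genes past an adjusted p of 0.05 by limma and open points for the others. Filled points lie to the right for 13 intercalated cell genes and 12 heat shock genes, and to the left for 11 macrophage and 9 glycolytic genes, with Havcr1 farthest left at -2.76.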

How the data were processed

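Kidney cortex RNA of 4 groups, 4 samples each, was measured on 16 Affymetrix arrays. Per the submitters' processing notes, the deposited log2 values came from RMA in Affymetrix Expression Console 1.4; no annotation build is given in the sources used here. RMA background-corrects, quantile-normalizes and summarizes probes on the log2 scale, which forces arrays to like distributions and compresses differences of dim genes. The number of arrays limits the precision.

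Of 41345 probe sets, 25335 had an entry in GEO's platform annotation and 23521 of these had 1 gene symbol; 1814 had several and were left out. Symbols were updated through RefSeq where possible (23328 probe sets), giving 22180 genes, each read from its probe set of highest mean over all arrays; 1082 genes had several. No column of per-sample values was left unused. Of 46 gene lists, with 634 genes, 560 genes were measured. The members and lists were chosen with earlier results of these data known.

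Means and SDs were taken over the 4 wild-type arrays. Differences were tested with limma 3.58.1 (R 4.3.3; eBayes with a trend, Benjamini-Hochberg over 22180 genes, adjusted p under 0.05), in 2 fits: group and description number as fixed effects, and group alone, with arrays of one description number allowed to correlate (duplicateCorrelation, 0.0838). Both were checked on simulated data with independent noise and no spread between description numbers, so the check cannot speak to that spread. Of its calls 7.3% (pairs) and 8.45% (groups) were of genes left unchanged, and none was made where no change was planted. Planted changes of 0.5 log2 units were found in 52.2% (pairs) and 92.5% (groups). Genes named are the 30 brightest, the 5 highest and 2 lowest of each list and the 15 of widest SD above the median level. Also named are the 8 largest called rises and falls between numbers and the 2 largest called differences per list and direction against the mutants. The genes of the deletions and of sex were named too, and others were named after their values were seen. Alternatives were array centring, quantile normalization, leaving out dim genes, averaging a gene's probe sets, no trend, other blocks and leaving out arrays. Figures used matplotlib 3.10.9, tables pandas 2.3.3 (Python 3.11.15).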

Additional observations from a re-analysis of the deposited data

Results flagged for a closer look

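In a group of 4, an array was set apart where its gap to the nearest other array exceeded Dixon's critical share of the group's range, a limit that chance passes in about 1 of 20 groups. Of 304 named genes read this way in the wild-type group 22 (7.24%) passed it, and of all genes 5.32%. The named genes include the 15 chosen for the widest SD over these same arrays, so the shares cannot be compared. The 22 passed it 11 through replicate 4, 3 through replicate 1, 2 through replicate 2 and 6 through replicate 3. None is explained here.

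Replicate 4 was the low array for 8 small nucleolar RNAs: Snord61 (6.45), Snord47 (5.32), Snord111 (3.78), Snord1b (5.60), Snord110 (7.72), Snord58b (3.85), Snord87 (7.84) and Snord104 (7.56). Snord1b read 8.50, 8.62 and 8.82 in the other arrays. Replicate 4 was also low for Clnk (4.68), the clock repressor Cry1 (5.02) and the sodium pump regulator Fxyd2 (9.93).

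Replicate 3 was low for Umod (11.91), Corin (6.15), Jund (8.26) and the ribosomal Rplp1 (11.08), and high for Kap (12.75) and Emcn (9.06). Replicate 2 was low for Rps6 (11.18) and Fbp1 (11.41). Replicate 1 was high for Stc1 (6.11) and Hspa8 (11.99) and low for Slc16a3 (4.50).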

How the results depend on the processing

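Of the 30 brightest genes, 26 to 30 were shared with the ranking under each alternative tried. The median wild-type SD of 0.137 became 0.110 over genes above the median level, 0.122 without replicate 2 and 0.125 without replicate 4; leaving out 1 array gave 0.122 to 0.131. The count of 86 calls between the wild-type pairs was 33 with no trend in the prior variance and 24 to 109 without 1 wild-type array, and 214 without double mutant replicate 3, an alternative chosen after seeing the data. The share of calls higher in the second pair, 30.2%, became 17.6% after centring and 42.7% after quantile normalization. The count of 1430 against the mutants was 558 with arrays averaged per number, 652 without the first pair (chosen after seeing the data), 229 with a 1.5-fold minimum, and 949 to 1483 without 1 array; the 54.8% that were higher in wild type became 62.2% after centring, 42.8% after averaging and 39.6% without the first pair.

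Groups share replicate numbers 1 to 4, but deviations of same-numbered arrays correlated at -0.0744 to 0.059, so the numbers do not pair the samples. With the replicate block 206 genes were called between pairs, 23 of them shared, and 1676 against the mutants. In the wild-type, Vhl and Pbrm1 groups replicates 1 and 2 share 1 description number and replicates 3 and 4 another. Between the pairs this block is therefore set only by replicates 1 to 3 of the double mutant, which share a number. The 206 calls, and the losses under this block, thus also depend on those double mutant arrays. Of the genes named for the pairs, the falls of Aldh1a7, E230001N04Rik, Gadd45g and Rnu3a and the rises of Ces1g, Nr1i2, Pdk4, Serpinc1 and Slc51a were lost under at least 1 alternative; Hspa1a, Hspa1b, Gm3893, Slc16a14, Cyp4a14, Cyp24a1 and Angptl4 passed under each. No difference of a named gene reversed. The cause of these changes was not tested.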

Other observations

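Some wild-type gene groups belong to no comparison above. The 24 ribosomal protein genes had a median of 8.16 with 11 in the brightest 10%, and the 19 clock genes a median of 7.37, with Arntl, a core activator of the daily clock, even over the arrays at 5.72 ± 0.07. Interferon-stimulated genes had a median of 5.99 with none of 18 in the brightest 10%, and 2 of the 19 injury genes were there. Papss2, which makes the sulfate donor and was chosen after its values were seen, read 11.46, 11.45, 11.87 and 11.85, following the description numbers. ND6, the only mitochondrial gene of the 10 outside the 30 brightest, had a mean of 9.87 ± 0.47.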
